A study of Mus musculus with 6 samples.

Results

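The genes described here are the numbered mouse Zfp genes (Zfp for zinc finger protein) whose signal in bone marrow B lineage cells reached a log2 value of 6.0 or more. They were chosen from an array data set by symbol and by marrow level: probe sets with a single gene symbol made of Zfp and a number, with Zfp36 left out because it encodes an RNA-binding protein of another zinc finger type, 1 probe set per gene (the one with the highest mean over the 6 arrays), and a mean of the 3 marrow arrays of 6.0 or more. Of 19938 genes measured, 316 were numbered Zfp genes, and 137 of these were members. The 179 other Zfp genes lay under the marrow threshold. A further 24 Zfp symbols occurred only on probe sets that carry several symbols and were not analysed here. Because the marrow values chose the members, the marrow levels and every difference taken against them are given as a description, with no test of a member.

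The cells came from RAG2-GFP/129Sve mice, which carry a green fluorescent reporter of Rag2, the gene for a subunit of the recombinase that assembles antigen receptor genes. Mice of postnatal day 17 to 25 were used, 8 to 12 per experiment. Reporter-positive B lineage cells were sorted from small intestinal lamina propria, which is connective tissue beneath the gut epithelium, and from bone marrow, where most B cells form. Each tissue gave 3 independent pools, 1 array each, and the labels do not say which pools of the tissues came from the same mice. All groups thus shared the strain, the reporter and the age, and a pool mixes several animals. Fluorescence outlasts the transcript, so the sort can hold cells that have stopped recombining.

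Most numbered Zfp genes encode Cys2His2 zinc finger proteins, in which tandem fingers, each held by a zinc ion, read successive bases of DNA. Many of them also carry a KRAB domain, which recruits the co-repressor Trim28 and, through it, the histone methyltransferase Setdb1 and heterochromatin proteins, and a large share of these KRAB proteins silence endogenous retroviruses and other transposable elements. Such genes arose by repeated duplication and lie in clusters of related copies. Others of the same name have no KRAB domain and act as ordinary transcription factors, co-repressor subunits, RNA-binding or ribosome assembly proteins, so the shared name covers several functions.

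The promoters of the members at both ends of the range of differences, shown here because promoter base composition varied along that range, are the 250 bases before the annotated start (RefSeq, build GRCm38.p6, 5′ to 3′ on the gene's strand), with every CpG dinucleotide in capitals. The 3 members furthest below marrow in the lamina propria were Zfp971 (chr2:178023034-178023283, plus strand), Zfp825 (chr13:74493962-74494211, minus strand) and Zfp229 (chr17:21733474-21733723, plus strand).
Zfp971: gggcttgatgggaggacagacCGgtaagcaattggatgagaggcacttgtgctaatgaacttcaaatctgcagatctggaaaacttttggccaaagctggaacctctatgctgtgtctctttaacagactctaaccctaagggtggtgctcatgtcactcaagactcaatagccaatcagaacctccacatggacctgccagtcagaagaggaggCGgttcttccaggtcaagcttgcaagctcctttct
Zfp825: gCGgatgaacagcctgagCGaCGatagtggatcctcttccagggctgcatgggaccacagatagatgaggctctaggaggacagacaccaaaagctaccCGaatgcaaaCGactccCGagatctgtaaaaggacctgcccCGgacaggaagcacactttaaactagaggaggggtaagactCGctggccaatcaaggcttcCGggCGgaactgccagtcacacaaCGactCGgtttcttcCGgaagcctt
Zfp229: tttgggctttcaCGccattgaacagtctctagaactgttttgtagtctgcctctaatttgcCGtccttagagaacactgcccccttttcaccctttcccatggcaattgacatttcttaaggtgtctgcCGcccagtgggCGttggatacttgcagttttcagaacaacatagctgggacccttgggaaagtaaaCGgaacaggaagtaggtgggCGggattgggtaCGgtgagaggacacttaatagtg
These windows had a GC content of 48.8%, 55.2% and 48.8%, with 2, 13 and 7 CpG. The 3 members furthest above marrow were Zfp622 (chr15:25984116-25984365, plus strand), Zfp296 (chr7:19577037-19577286, plus strand) and Zfp777 (chr6:48047795-48048044, minus strand).
Zfp622: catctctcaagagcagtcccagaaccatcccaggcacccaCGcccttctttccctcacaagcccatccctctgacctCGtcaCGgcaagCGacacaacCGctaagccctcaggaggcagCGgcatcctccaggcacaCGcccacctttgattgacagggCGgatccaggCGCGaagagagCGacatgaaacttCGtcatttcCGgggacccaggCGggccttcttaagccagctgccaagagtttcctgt
Zfp296: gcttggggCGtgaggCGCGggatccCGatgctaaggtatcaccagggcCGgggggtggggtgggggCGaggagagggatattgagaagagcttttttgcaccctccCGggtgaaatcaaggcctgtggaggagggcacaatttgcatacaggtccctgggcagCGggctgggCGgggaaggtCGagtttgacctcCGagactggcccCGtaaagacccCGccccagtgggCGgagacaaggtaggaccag
Zfp777: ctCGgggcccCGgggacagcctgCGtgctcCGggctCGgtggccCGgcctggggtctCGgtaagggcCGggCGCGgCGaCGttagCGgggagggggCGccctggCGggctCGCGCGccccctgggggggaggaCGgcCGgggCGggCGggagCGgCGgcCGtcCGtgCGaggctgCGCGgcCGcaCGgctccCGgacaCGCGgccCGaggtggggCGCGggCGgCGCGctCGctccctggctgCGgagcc
These had a GC content of 60.0%, 64.0% and 84.0%, with 14, 14 and 42 CpG, so each of the 3 high members lay above each of the 3 low members in GC content. Of the high members, only Zfp622 was above marrow without overlap, and Zfp296 and Zfp777 overlapped with it.

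The B lineage label was borne out by its markers. The 12 measured genes of the B lineage list, which include the surrogate light chain gene Vpreb1 and the transcription factors Ebf1 and Pax5, had median levels of 10.07 to 10.13 in the lamina propria pools and 9.53 to 10.82 in the marrow pools, against medians over all probe sets of 5.34 to 5.48 in the 6 arrays. Of the 12, 11 had a negative difference, as did 77.3% of other genes of the same marrow level, where 67.6% of all genes had a positive one. The median difference of the list was -0.23, against -0.35 in those other genes of its level. Dntt (-0.51), Rag1 (-1.05) and Rag2 (-2.35) lay below every marrow pool, 25.0% of the list against 15.9% of other genes of its level. Markers of most other cells had medians near or below those array medians, stroma and endothelium excepted. The 6 measured T cell markers had medians of 4.37 to 4.86 in the lamina propria and 4.11 to 4.22 in marrow, all 6 with a positive difference, and the 8 intestinal epithelium markers 4.97 to 5.18 and 4.62 to 4.86, also all positive. The median differences of these 2 lists were 0.50 and 0.33, where 12667 other genes with a marrow mean under 6.0 had 0.32. Granulocyte markers had medians of 5.12 to 5.68 in the lamina propria and 5.04 to 5.85 in marrow, and the neutrophil gene S100a9 reached 9.26 in marrow pool 2. The 6 macrophage markers had medians of 5.31 to 5.49 in the lamina propria and 5.23 to 5.89 in marrow, with Lyz2 at 7.88 in lamina propria pool 3. The 4 plasma cell markers had medians of 4.82 to 5.28 in the lamina propria and 4.60 to 4.92 in marrow. They did not move together: Jchain differed by 1.41, Prdm1 by 0.62, Xbp1 by 0.29 and Sdc1 by -0.035. Jchain and Prdm1 lay above every marrow pool, as did 14.8% of all genes, with all their values under the array medians. Jchain had 4.79, 3.83 and 4.64 in the lamina propria and 3.24, 2.78 and 3.01 in marrow. The 4 stroma and endothelium markers had medians of 6.20 to 6.99 in the lamina propria and 6.10 to 6.27 in marrow, above the array medians, and the 2 erythroid markers 4.90 to 5.68 and 5.06 to 5.24. The stroma and endothelium markers did not move together: Pecam1, the brightest at a marrow mean of 8.43, differed by -1.14, and Col1a1, Col1a2 and Cdh5 by 0.55 to 0.70. The part of these markers in the Zfp values was not tested. Lamina propria pools 1 and 2 stood apart from the other arrays: over all genes they correlated at 0.77 to 0.83 with the other 4, whereas pool 3 correlated at 0.95 to 0.97 with the marrow arrays, and the interquartile range of their values was 2.00 and 1.94 against 2.47 in pool 3 and 2.41 to 2.46 in marrow. In this bulk RNA, fewer cells of a type and less RNA per cell cannot be told apart. Pool 3 is therefore shown beside the main results below.

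Across the 137 members the lamina propria lay below the marrow. The median of the log2 differences (mean of 3 lamina propria pools minus mean of 3 marrow pools) was -0.60, with quartiles of -1.30 and 0.02 and a range of -3.42 to 1.75, and 102 members had a negative and 35 a positive difference. Over all 19938 genes the median was 0.22, and it was 0.17 for the 179 Zfp genes under the marrow threshold and -0.09 for all 316. Since a threshold on marrow favours genes that happen to be high there, the members are set beside 6955 other genes with a marrow mean of 6.0 or more, weighted to the members' marrow levels in classes of 0.5. These other genes had a median of -0.26, and 64.0% of them were negative, against 74.5% of the members.

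The pools differed in how far the members lay below marrow. The median distance of members from their marrow mean was -0.57 in lamina propria pool 1, -0.67 in pool 2 and -0.22 in pool 3, and that of the other genes of the same marrow level was -0.33, -0.42 and -0.03. The members thus lay further down than the other genes in each of the 3 pools, pool 3 included. In pool 3, 64 members lay below every marrow pool, 54 inside the marrow range and 19 above it. Over all genes, 26.7% lay below every marrow pool in pool 3 and 24.8% above; for the members these shares were 46.7% and 13.9%, and for the other genes of the same level 27.3% and 23.7%.

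**Figure D1:**
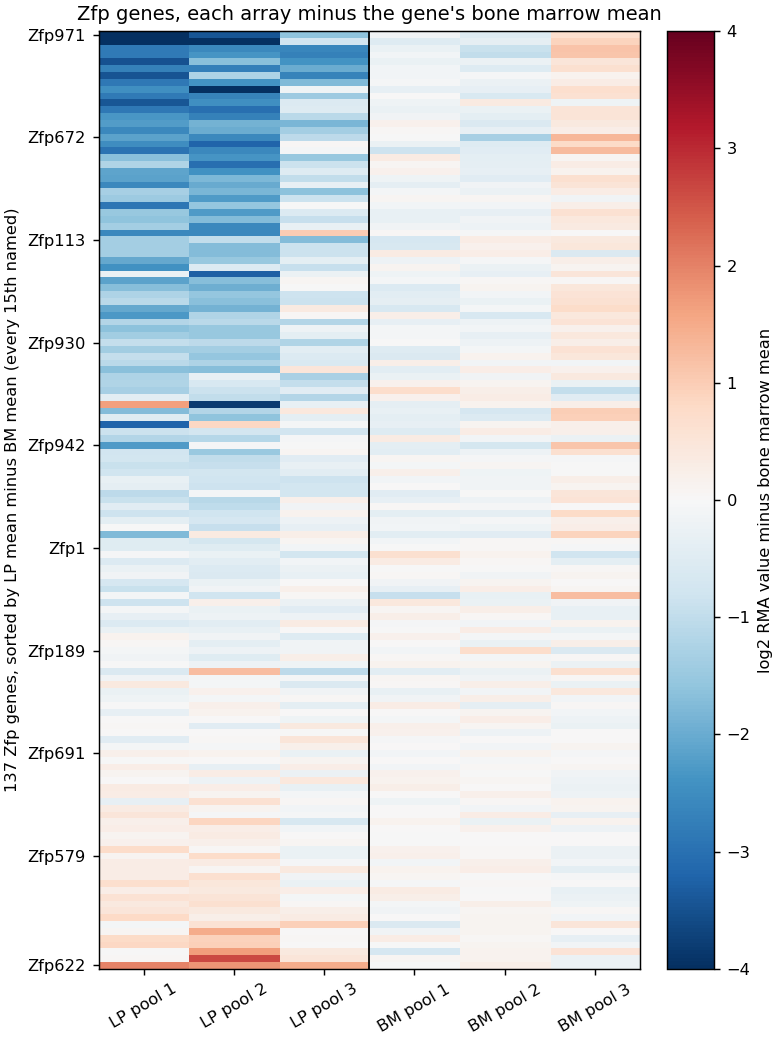
Each row is 1 of the 137 Zfp genes, sorted by the lamina propria mean minus the bone marrow mean, and each column an array (LP, lamina propria; BM, bone marrow); colour gives the log2 value minus the gene's marrow mean. The blue block at the top is deepest in lamina propria pools 1 and 2, and the marrow columns show marrow pool 3 above the other marrow pools in many of the same rows.

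The marrow pools were not interchangeable for these genes. Marrow pool 3 was the highest of the 3 in 75 of the 137 members (54.7%), against 36.8% of the other genes of the same level. The median of members in marrow pool 3 lay 0.15 above the mean of the other marrow pools, while the other genes lay 0.05 below (-0.05). The size of the shift also depended on that array. The members' median minus that of the other genes was -0.34 with all arrays and -0.12 without marrow pool 3. When members were chosen on 2 marrow pools and the difference was then taken against the marrow pool left out, members had medians of -0.37, -0.49 and -0.43 (marrow pool 1, 2 or 3 left out), and the gap to other genes chosen the same way was -0.09, -0.18 and -0.37. The other genes had medians of -0.28, -0.31 and -0.07, so a negative median was not particular to the members. The gap stayed negative against each marrow pool left out, but most of it was lost against marrow pool 1. These are splits of the same 3 marrow arrays and not independent data. With lamina propria pool 3 alone, the members' medians against the marrow pool left out were -0.15, -0.19 and -0.28, against -0.03, -0.05 and 0.04 for the other genes.

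The members lay below other genes in each of the 6 marrow level classes with 5 or more members. Of the 52 members with a marrow mean of 6.0 to 6.5, the median difference was -0.15, against 0.07 in 1967 other genes. From 6.5 to 7.0 it was -0.51 in 38 members and -0.29 in 1393 other genes, and from 7.0 to 7.5 it was -0.83 in 17 members and -0.57 in 1088 others. From 7.5 to 8.0 the values were close, at -0.91 in 14 members and -0.83 in 834 others. From 8.0 to 8.5 the 7 members had a median of -1.52 and from 8.5 to 9.0 the 5 members -1.64, against -0.95 and -0.98. Above 9.0 there were 4 members: Zfp825 at -3.19 (other genes -0.73), Zfp706 at 0.52 (other genes -0.80), and Zfp207 at -0.54 and Zfp330 at 0.49 (other genes -0.53). Zfp706 and Zfp330 thus lay above the other genes of their classes, and Zfp207 lay level with them. Just inside the threshold lay Zfp457, Zfp691 and Zfp229, at marrow means of 6.02, 6.03 and 6.03, and just outside it Zfp366, Zfp784 and Zfp618, at 5.99, 5.98 and 5.96. Their differences of 0.02, 0.03 and -2.67 inside, and of 0.55, 0.06 and 0.77 outside, show how unlike genes of nearly the same marrow level were.

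**Figure D2:**
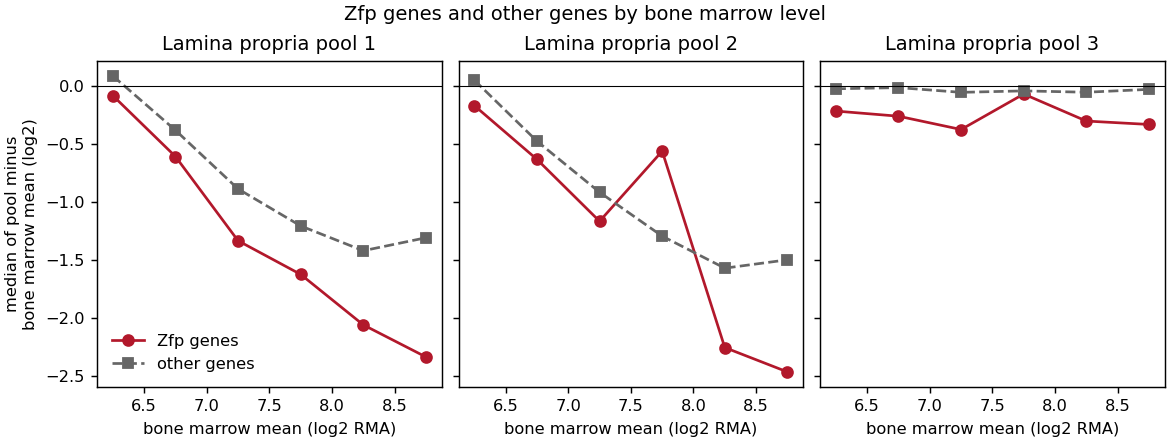
The vertical axis is the median of each lamina propria pool minus the marrow mean (log2), by marrow mean in classes of 0.5, for classes with at least 5 members. In pool 3 the other genes (grey squares) stay near 0 while the Zfp genes (red circles) lie below them, least so at 7.5 to 8.0; in pool 2 the Zfp genes lie above the other genes in that class.

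Every lamina propria pool lay below every marrow pool in 48 members, and every one above in 4. These are 35.0% and 2.92% of the members. Over all genes 7.27% were below and 14.8% above, and of the other genes of the same marrow level 14.9% were below and 5.09% above. With lamina propria pools 1 and 2 only, 72 members (52.6%) lay below every marrow pool, against 41.7% of the other genes of the same level and 18.7% of all genes. A difference of -1 or lower was found in 48 members (8.9% of all genes, and 18.8% of the other genes of the same level), and one of -2 or lower in 13 (1.32% of all genes, and 2.32% of the other genes of the same level). In pool 3 alone, 20 members (14.6%) lay at least 1 below the marrow mean, against 2.76% of the other genes of the same level.

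No gene passed limma's test over all genes (adjusted p under 0.05; 0% of 19938, smallest adjusted p = 0.155), members included. At an unadjusted p under 0.05, 51 members were lower and 1 higher, where 8.15% of all genes were lower and 5.53% higher; since marrow values chose the members, nothing is read from this. Without lamina propria pool 3, limma called 7222 genes, among them 55 members lower and 4 higher, where 12.1% of all genes were lower and 24.1% higher. The same limit holds for these counts.

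A set of 15 members lay at least 1 log2 unit below the marrow mean in all 3 lamina propria pools. This is 10.9% of the members, against 1.88% of the other genes of the same marrow level and 0.943% of all genes. They were Zfp971, Zfp229, Zfp882, Zfp626, Zfp935, Zfp961, Zfp873, Zfp87, Zfp638, Zfp329, Zfp760, Zfp672, Zfp182, Zfp60 and Zfp770, a grouping made after the values were seen. The 8 members with the lowest difference were 7 of these and Zfp825. Of the 15, Zfp672 alone overlapped with marrow, with 5.78 in lamina propria pool 3 and 5.51 in marrow pool 2 (marrow SD 1.32). Zfp229 had 3.20, 3.46 and 3.43 in lamina propria pools 1, 2 and 3, and 5.78, 5.15 and 7.16 in marrow pools 1, 2 and 3. The lamina propria pools lay within 0.3 of each other (SD 0.14), well under the lowest marrow pool, but the marrow pools were spread over 2 log2 units (SD 1.03). The difference was -2.67. The lamina propria values lay about 2 log2 units under the array medians, so their distance from background is not known. The same limit holds for Zfp882, Zfp626, Zfp935 and Zfp873, whose lamina propria values were all under the array medians. In lamina propria pools 1, 2 and 3, 41, 39 and 16 of the members lay under the array median.

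Zfp882 had 4.55, 5.01 and 4.69 in the lamina propria and 7.27, 6.38 and 8.48 in marrow, a difference of -2.63. Zfp961, of the same run of neighbouring Zfp genes, had 3.69, 5.91 and 4.47 in the lamina propria and 7.04, 7.08 and 7.28 in marrow, a difference of -2.44. In lamina propria pool 3, Zfp882 and Zfp961 lay at -2.69 and -2.67 from the marrow mean, between the distances of pools 1 and 2 (-2.83 and -2.37 for Zfp882, -3.44 and -1.23 for Zfp961). The marrow pools of Zfp961 were tight (SD 0.13), those of Zfp882 were not (SD 1.06). Zfp935 had 3.61, 3.60 and 4.33 in the lamina propria and 6.20, 5.81 and 6.95 in marrow, and Zfp626 had 3.19, 4.99 and 4.30 in the lamina propria and 6.42, 6.44 and 7.16 in marrow, differences of -2.47 and -2.51. Zfp873 had 3.84, 4.29 and 4.92 in the lamina propria and 6.65, 6.45 and 6.99 in marrow, a difference of -2.35. The lamina propria values of these 3 genes did not overlap with marrow, and pool 3 was the highest lamina propria pool for Zfp935 and Zfp873.

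Zfp971 and Zfp825 had the largest differences, with pool 3 the nearest to marrow in both. In pools 1 and 2 alone they lay at -4.32 and -4.40 from the marrow mean, and in pool 3 at -1.62 and -0.78. Zfp971 had 2.50, 4.31 and 6.11 in the lamina propria and 7.58, 7.20 and 8.40 in marrow, a difference of -3.42 with a lamina propria SD of 1.80. Zfp825 had 5.18, 4.98 and 8.71 in the lamina propria and 8.97, 9.11 and 10.37 in marrow, a difference of -3.19 with an SD of 2.09. For Zfp825, pool 3 was within 0.78 of the marrow mean (-0.78), so nearly all of its difference came from pools 1 and 2. Zfp638, a nuclear protein that in human cells works with the HUSH complex to silence unintegrated retroviral DNA, had 6.28, 5.90 and 7.54 in the lamina propria and 8.47, 8.23 and 9.13 in marrow, a difference of -2.04. It was low in all 3 lamina propria pools, least in pool 3.

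**Figure D3:**
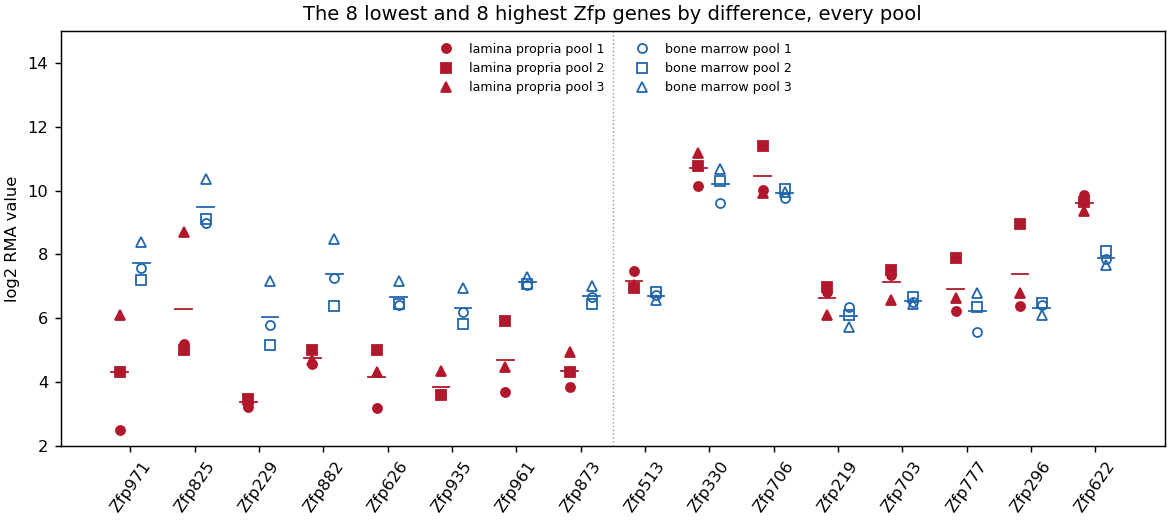
Values of every pool (log2 RMA) for the 8 members with the lowest difference, left of the dotted line, and the 8 with the highest, right of it; filled symbols are lamina propria, open symbols bone marrow, and short lines are means of 3 pools. All 8 genes on the left have no overlap between the tissues, and of those on the right Zfp622 and Zfp513 have none.

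A second set of 17 members lay at least 1 below the marrow mean in lamina propria pools 1 and 2, with pool 3 within 0.5 of it. This is 12.4% of the members, near the 13.0% of other genes of the same level, and 5.82% of all genes. Zfp148, a factor that binds GC-rich promoter elements, had 5.95, 6.50 and 8.19 in the lamina propria and 8.15, 8.38 and 9.02 in marrow. Its pool 3 lay at the lowest marrow pool, and pools 1 and 2 about 2 log2 units lower, for a difference of -1.64. Zfp830, a nuclear protein needed in the early mouse embryo, had 4.43, 4.42 and 6.61 in the lamina propria and 5.69, 6.38 and 6.27 in marrow, so that pool 3 was above every marrow pool while the difference was -0.96.

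**Figure D4:**
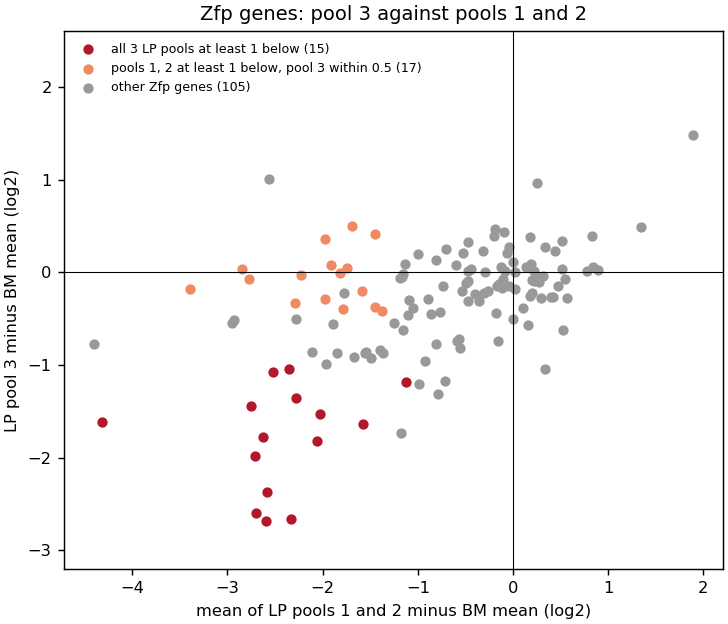
Each point is 1 of 137 Zfp genes, with the mean of lamina propria pools 1 and 2 minus the marrow mean on the horizontal axis and pool 3 minus the marrow mean on the vertical axis (log2). The 15 genes in dark red lie at -1 or lower in every pool, with pool 3 between -2.69 and -1.05, and the 17 in orange are low in pools 1 and 2, with pool 3 between -0.42 and 0.50.

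Promoter base composition followed the difference among the members. RefSeq listed a promoter window (250 bases before to 50 after the start) for 111 of the 137 members, 81.0%. Their median GC content was 55.7% (quartiles 51.0% and 62.5%), against 61.0% in other genes of the same marrow level, and they held a median of 16 CpG against 21. The difference between the tissues correlated with promoter GC at r = 0.353 (Spearman 0.390) over the 111 members and at r = -0.037 over 5597 other genes with a marrow mean of 6.0 or more. For pool 3 alone it was 0.386 over the members and 0.068 over the others, and for the mean of pools 1 and 2 it was 0.301 and -0.057. The marrow mean itself did not follow GC among the members (r = -0.056). All points share the same arrays, and the base composition of the transcripts was not used here.

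Split into 3 groups of rising promoter GC, the members ran in order. The 38 members with 39.3% to 52.7% GC had a median difference of -1.02, and 33 were negative and 20 (52.6%) lay below every marrow pool, against 17.8% of other genes of the same GC range and marrow level. The 37 with 53.0% to 60.7% had a median of -0.65, with 27 negative and 16 (43.2%) below every marrow pool, against 14.7% of such other genes. The 36 with 61.3% to 85.3% had a median of -0.15, with 24 negative and 4 (11.1%) below, under the 14.0% of such other genes. The marrow medians of the 3 groups were alike, at 6.68, 6.63 and 6.54. Other genes of the same GC range and marrow level had medians of -0.27, -0.25 and -0.24. In pool 3 alone the members' medians were -0.59, -0.27 and -0.03, against -0.09, -0.01 and -0.01 for the others. The gap to other genes thus lay in members of low and middle promoter GC. Of the 15 members low in every pool, 13 had a window, with a median of 52.7% GC (48.7% to 64.7%).

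**Figure D5:**
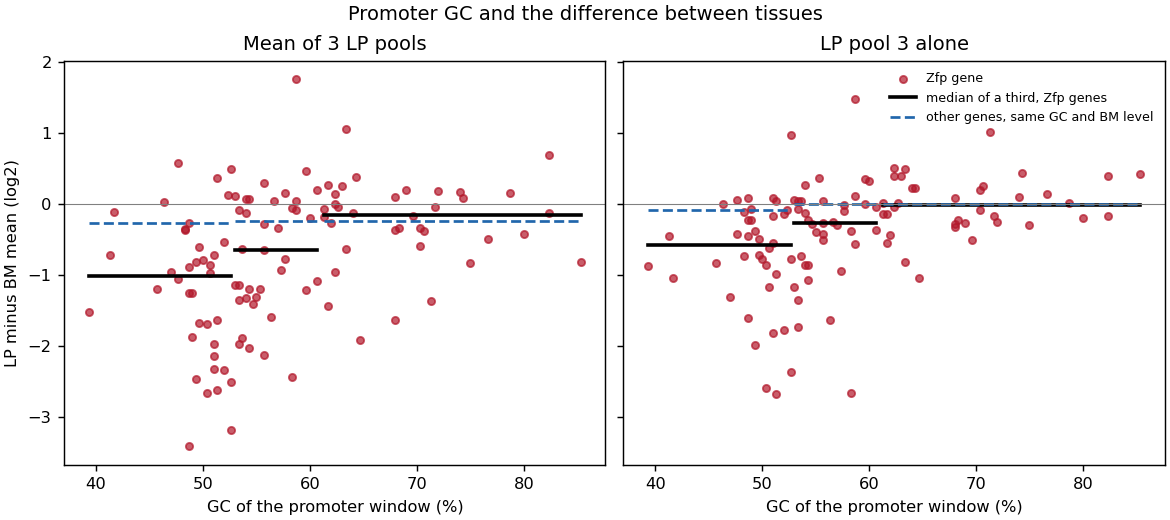
Each point is a Zfp gene with a RefSeq promoter window (111 genes), with promoter GC on the horizontal axis and the log2 difference from the marrow mean on the vertical axis, for the mean of 3 lamina propria pools (left) and pool 3 alone (right). Black bars are medians of the members in 3 groups of rising GC, and dashed blue bars those of other genes of the same GC range and marrow level, which stay between -0.27 and -0.01.

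Promoter motifs were about as common in members as in other genes of their level, except the GC box, which was rarer. The ETS core CCGGAAG, searched on both strands of the same windows, was found in 23 of 111 members (20.7%), in 20.2% of the other genes and in 9.12% of all 27025 genes with a window. The NRF1 motif was found in 11 members (9.91%, against 11.3% and 4.78%), the cyclic AMP element TGACGTCA in 3 (2.70%, against 3.80% and 1.88%) and TATAAA in 8 (7.21%, against 6.91% and 14.2%). The GC box GGGGCGGGG was found in 16 members (14.4%), against 23.3% of the other genes and 11.6% of all, and the YY1 motif in 2 (1.80%, against 2.15% and 0.699%). These are matches of letters, those of different motifs may overlap, and the differences in share were not tested.

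Members that lie beside other Zfp genes on the chromosome were lower than the rest. By RefSeq gene order, 51 members lay in runs of 3 or more Zfp genes with at most 1 other protein-coding gene between neighbours, and 86 did not. The median difference was -0.89 in the 51 and -0.38 in the 86, and in pool 3 it was -0.31 and -0.18, at marrow medians of 6.60 and 6.79. Of the 51, 21 lay below every marrow pool (41.2%) and 1 above, and of the 86, 27 (31.4%) and 3. Of other genes of the same marrow levels 14.5% and 15.2% lay below, and 5.37% and 4.93% above. Promoter GC moved with this split, with medians of 53.0% in 43 members in runs and 58.7% in 68 others, and the part of GC in it was not tested, nor was the difference itself. Neighbours did not all act alike. In 1 run, the members Zfp51, Zfp53, Zfp760, Zfp229 and Zfp942 were all negative, from -2.67 to -0.34, with 3 of 5 below every marrow pool, and Zfp60 and its neighbour Zfp626 differed by -1.60 and -2.51. By contrast Zfp768, Zfp747 and Zfp764, which form another run, differed by 0.16, 0.12 and 0.36. Zfp768 had 7.08, 7.10 and 6.99 in the lamina propria and 6.89, 6.90 and 6.90 in marrow, a small difference without overlap. Zfp397, Zfp35 and Zfp24, also neighbours, differed by -1.30, -1.42 and -0.16, the last turning positive with quantile or median and deviation scaling. Related copies can share probe sequence, and cross-hybridisation between them was not tested.

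Higher in the lamina propria were 35 members (25.5%, against 36.0% of other genes of the same marrow level), and Zfp622 was the furthest. It encodes a cytoplasmic protein that in human cells takes part in maturation of the large ribosomal subunit. Its values were 9.87, 9.65 and 9.35 in the lamina propria and 7.86, 8.10 and 7.65 in marrow. Every lamina propria pool lay more than 1 unit above every marrow pool, with SDs of 0.26 and 0.23, for a difference of 1.75 or 3.36-fold. It and Zfp296 were the 2 members (1.46%) with a difference of 1 or higher, a size reached by 0.617% of all genes and 1.04% of other genes of the same marrow level. The share of members was thus near that of their level. Zfp296, a nuclear factor of mouse pluripotent cells, had 6.37, 8.95 and 6.80 in the lamina propria and 6.40, 6.46 and 6.09 in marrow, so its difference of 1.06 came from pool 2. Zfp777 had 6.22, 7.89 and 6.62 in the lamina propria and 5.55, 6.36 and 6.77 in marrow, with overlap and again highest in pool 2.

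Other members of the upper end showed smaller or less even values. Zfp703, a co-repressor studied in human breast cancer, had 7.36, 7.50 and 6.56 in the lamina propria and 6.51, 6.66 and 6.44 in marrow, and Zfp219, a partner of Sox9 in mouse cartilage, had 6.82, 6.97 and 6.11 in the lamina propria and 6.35, 6.09 and 5.73 in marrow. For both genes pool 3 lay inside the marrow range, and the differences were 0.60 and 0.58. Zfp513, a gene of human inherited retinal degeneration, had 7.48, 6.95 and 7.04 in the lamina propria and 6.71, 6.81 and 6.58 in marrow, with no overlap and a difference of 0.46. The nucleolar gene Zfp330 had 10.14, 10.78 and 11.16 in the lamina propria and 9.61, 10.31 and 10.68 in marrow, a difference of 0.49 smaller than the SD of either tissue (0.52 and 0.55). Zfp706, a small zinc finger gene, had 10.01, 11.40 and 9.93 in the lamina propria and 9.78, 10.04 and 9.95 in marrow. Its difference of 0.52 rested on pool 2 and turned negative when its probe sets were averaged. Zfp655, chosen after its values were seen because it completes the 4 members with every lamina propria pool above marrow, differed by 0.37.

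Members with a known link to lymphocyte recombination or B cell maturation differed by less than 0.5. In mouse thymocytes Zfp609 favours and Zfp608 opposes expression of Rag1 and Rag2. Zfp608 had 6.92, 7.67 and 8.02 in the lamina propria and 7.48, 8.09 and 7.89 in marrow, and Zfp609 had 6.46, 6.87 and 7.15 in the lamina propria and 6.99, 7.24 and 7.16 in marrow. Both overlapped, at -0.28 and -0.31, and Zfp608 turned positive with quantile scaling and without lamina propria pool 1. Over the same arrays Rag2 averaged 5.83 ± 0.21 in the lamina propria and 8.18 ± 0.37 in marrow (SD, n = 3 each). Zfp318, which mature mouse B cells need to make the long transcript for IgD, had 5.67, 5.39 and 5.86 in the lamina propria and 5.91, 6.01 and 6.27 in marrow, below marrow without overlap at -0.42. Zfp521, a co-factor of early B cell development, was no member, at a marrow mean of 5.35.

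Members of chromatin complexes were mixed. Zfp644, a partner of the G9a histone methyltransferase, had 5.41, 5.26 and 7.76 in the lamina propria and 8.02, 8.01 and 8.78 in marrow, below marrow in each pool at -2.13 but only just so in pool 3. Zfp809, a KRAB protein that binds the primer binding site of mouse retroviruses and recruits Trim28, had 7.01, 5.85 and 7.10 in the lamina propria and 7.08, 6.92 and 8.43 in marrow, with overlap at -0.83. Zfp592 and Zfp687, which occur together in a chromatin complex with Zmynd8, differed by -0.13 and -0.27 with overlap, and Zfp592 turned positive with both other scalings. Zfp217, a co-repressor partner and an oncogene of human breast cancer, had 6.63, 6.04 and 6.65 in the lamina propria and 6.26, 6.42 and 6.46 in marrow, with overlap at 0.06. Zfp281, a relative of Zfp148 that also binds GC boxes, had 5.61, 7.72 and 7.62 in the lamina propria and 6.94, 6.93 and 8.26 in marrow. Pool 1 alone was low, and its difference of -0.39 turned positive without lamina propria pool 1 or without marrow pool 3.

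Among members that act on RNA or in mitosis, and a few of less known role, the pools of some differed widely. Zfp326, a subunit of a complex that couples splicing to transcription in human cells, had 5.25, 5.25 and 8.82 in the lamina propria and 7.86, 7.76 and 7.84 in marrow. Its pools 1 and 2 lay more than 2 below marrow and pool 3 was 1.00 above, so the mean of -1.37 describes no pool. Zfp207, which binds the spindle checkpoint protein Bub3, had 9.60, 9.06 and 9.91 in the lamina propria and 10.10, 10.02 and 10.06 in marrow, below marrow in every pool at -0.54, a sign that turned with median and deviation scaling. Zfp106, an RNA-binding protein needed for mouse motor neuron function, differed by -0.73 with overlap. The large gene Zfp292 had 7.95, 7.71 and 9.02 in the lamina propria and 8.49, 8.62 and 9.36 in marrow, also with overlap, and Zfp871 had 8.65, 5.66 and 8.70 in the lamina propria and 8.76, 8.60 and 9.42 in marrow, where pool 2 alone was far down. Zfp35 (-1.42) lay below marrow without overlap, and Zfp131 (-0.49) overlapped.

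The genes that KRAB proteins act through lay close to other genes of their marrow level. All 15 measured of the 17 listed partner and heterochromatin genes had a negative difference, as did 84.0% of other genes of the same level. Their median was -0.89, against -0.75, and 4 (26.7%) lay below every marrow pool, against 21.8%. In lamina propria pools 1, 2 and 3, 14, 15 and 8 of the 15 lay under their marrow mean, and the median in pool 3 was -0.01. Trim28, the co-repressor itself, had 6.76, 6.48 and 8.09 in the lamina propria and 7.43, 7.59 and 7.90 in marrow, above every marrow pool in pool 3. Setdb1 differed by -1.03 with overlap (-0.07 in pool 3). Both are named for their role above and not by the rule for lists. The list's 4 genes of highest marrow value, Hdac2, Cbx3, Chd4 and Atf7ip differed by -1.37, -0.58, -0.53 and -1.24, and in pool 3 by 0.16, 0.05, 0.37 and -0.31. Hdac2 rests on lamina propria pool 2 (5.65, against 10.81 and 10.52 in pools 1 and 3), and without that pool the 4 differences were 0.31, -0.055, -0.23 and -0.57.

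Lists of other zinc finger genes, made by symbol or by role and with the same marrow threshold, gave different medians. The list of Zfp genes with a letter after the number includes Zfp36l1 (0.97) and Zfp36l2 (-0.39), named after the Zfp36 left out of the members. The 12 Zfp genes with a letter after the number had a median of -0.81 (-0.39 in pool 3). The 20 Zbtb genes had -0.48 (-0.25 in pool 3) and the 4 Zkscan genes -0.62 (-0.38 in pool 3). The 2 Zscan genes had -0.92 (-0.07 in pool 3). Other genes of the same marrow level had medians of -0.37, -0.23, -0.25 and -0.28 for these lists in turn. A median below that of other genes of the same level was thus not particular to the members. The 10 Klf genes had a median of 0.49 (0.11 in pool 3), with 2 negative, against -0.13 in other genes of their level. Of the 12 other Cys2His2 factors of lymphocytes with a marrow mean of 6.0 or more, 10 were negative with a median of -0.63 (-0.05 in pool 3), the same as the -0.63 of other genes of their level. Among them Ikzf1, Ctcf, Bcl11a and Yy1 differed by -0.36, -1.93, -1.77 and -0.72, and in pool 3 by -0.08, 0.11, -1.40 and 0.12. Ikzf1 turned to 0.05 without lamina propria pool 1, and Ctcf was -1.04 without that pool and -2.95 without pool 3. Bcl11a, a factor of early B cells, lay below every marrow pool. Differences between these lists were not tested.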

How the data were processed

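Reporter-positive B lineage cells of 2 tissues were measured on 6 arrays, 3 pools per tissue. Per the labels' protocols, 4.5 to 47 ng of RNA, extracted with Trizol, went through a Nugen Ovation amplification. The authors deposited log2 values; the submitters' processing notes name RMA and Affymetrix Expression Console (1.3.0.187). For settings and genome build, nothing is given in the sources used here. RMA in general forces array distributions to be alike, so a loss of many transcripts in 1 array moves its other values. The deposited distributions were not fully alike: the interquartile range was 2.00 and 1.94 in lamina propria pools 1 and 2, against 2.41 to 2.47 in the other arrays. The number of arrays limits the precision.

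The log2 values were used as deposited. Of 35556 probe sets 21789 had 1 gene symbol, 1621 several and 12146 none, and 19938 genes were kept, each by its probe set of highest mean. All 137 members kept their symbol in RefSeq (GRCm38.p6). Of 9 members with several probe sets, 3 had probe sets that differed in opposite directions. Values of different probe sets are not amounts of RNA and are not ranked against each other as such. limma 3.58.1 under R 4.3.3 (lmFit, eBayes, two-sided, no block) was run over all genes with Benjamini-Hochberg adjustment at 0.05, and was tested on simulated data. Other genes were weighted to the members' marrow levels in classes of 0.5 log2, with no random draw. Figures were drawn with matplotlib 3.10.9.

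The members, lists and tests were chosen with earlier results of these data known. The rule for named members took the 8 lowest and 8 highest differences, the 6 highest marrow means, the 3 genes on each side of the threshold, runs of neighbours and a fixed set with known roles, and from each list the 4 genes of highest marrow mean. Alternatives tried were a block for pool number, a dim gene filter, intensity-dependent robust variances, array weights, quantile scaling, scaling to a common median and deviation, averaged probe sets, other thresholds and arrays for membership, wider level classes and leaving out each array. Pool 3 alone, and the mean GC over all promoter windows of a gene, were added after seeing the data. Pool numbers were not taken to pair the tissues: although the design sorted both tissues in each experiment, no label ties a number to an experiment. The deviations of same-numbered pools from their tissue means correlated at 0.131, 0.051 and 0.226 across genes. Those of differently numbered pools correlated at -0.211 to 0.133, so the value of 0.226, for pool 3, was the highest. These values do not settle whether same-numbered pools belong together. Zinc finger and KRAB features of the proteins were not analysed here.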

Additional observations from a re-analysis of the deposited data

How the results depend on the processing

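Over all genes limma called 0 genes, with 1103 higher and 1625 lower at an unadjusted p under 0.05. It called 16 with the pool number as a block (pairing by number; the pools share only a number), 40 with intensity-dependent robust variances and 5586 with array weights, which gave lamina propria pool 3 a weight of 0.153. Leaving out 1 array gave 0 to 7222 calls: 7222 without lamina propria pool 3, and 0 without any other array. The filter on dim genes, both other scalings and averaged probe sets gave 0.

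The members' median difference of -0.60 was -0.47 with quantile and -0.50 with median and deviation scaling, where 86 and 89 members were negative and the median of all genes was 0.20 and 0.13. It was -0.34 for 189 members at a marrow mean of 5.5 or more, -1.09 for 47 at 7 or more, -0.24 for 119 chosen on the mean over all 6 arrays and -0.22 in lamina propria pool 3 alone. Leaving out 1 array gave -0.71 to -0.40. The count of 48 members below every marrow pool was 17 at 7 or more and 28 when chosen on all 6 arrays, and 50 to 72 with 1 array left out.

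The gap of -0.34 to other genes of the same marrow level was -0.37 with quantile scaling, -0.23 with averaged probe sets, -0.29 at 5.5 or more and -0.19 in pool 3 alone. Chosen and levelled on all 6 arrays it was -0.092, and against marrow pools that did not choose the members it was -0.088 (pool 1), -0.18 (pool 2) and -0.37 (pool 3). Leaving out 1 array gave -0.42 to -0.12. The cause of these changes was not tested. The gap stayed negative under each of these alternatives. Of 396 values of 44 named members under alternatives, 15 had the opposite sign. The correlation with promoter GC ran from 0.301 to 0.386 over its alternatives. The 3 pools per tissue and signals near the array median limit what can be said of dim members.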
